A study of Mus musculus with 18 samples.

Results

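The type I interferon-stimulated genes followed here are 39 mouse genes chosen by symbol from common knowledge of the interferon response. The rule uses no measured value, but the list was drawn up with earlier results of these data known. Of these, 37 have a row among the 21899 genes of the deposited expression values, and Mx1 and Mx2 were not analysed here. Their RNA was read in 18 libraries of male, wild type C57BL/6 mice aged 18 weeks. The control group (CON) received normal chow and tap water, and the high-salt group (HSD) received a high-salt diet with saline drinking water for 12 weeks. Liver, epididymal white adipose tissue (eWAT) and quadriceps muscle were each represented by 3 CON and 3 HSD libraries. The letters and digits of a library name were taken as the code of the mouse. Mice CON16, CON72, HS2 and HS5 then gave all 3 tissues, so the tissues are not independent of each other. The RNA is of whole tissue, in which fewer cells of a type and less RNA per cell cannot be told apart.

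Type I interferons are secreted by cells that sense foreign or misplaced nucleic acid. They bind a receptor of the chains IFNAR1 and IFNAR2, and the kinases JAK1 and TYK2 then phosphorylate STAT2, which joins IRF9 in the complex ISGF3. ISGF3 binds the interferon-stimulated response element (ISRE) in front of many genes. Their products sense viral RNA or DNA, block translation, degrade RNA, tag proteins with ISG15 or restrict virus budding, and a low level of many of them is kept up in uninfected tissue by weak tonic signalling. Macrophages are among the cells that express these genes strongly.

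Values are FPKM, fragments per kilobase of a gene, scaled to the size of the library. They were whole numbers of fragments at a fixed length of the gene for all 37 genes, which gave the fragments behind each value. The libraries held between 7628071 and 16637489 fragments on the listed genes, so that 1 FPKM of a gene of 1 kb stands for 7.63 to 16.6 fragments. Hepatocyte, adipocyte and skeletal muscle markers were highest in the tissue of their label. Several libraries stood apart, however. Mitochondrially encoded genes took 15.4% to 60.8% of the fragments in liver libraries, with a 95% Wilson interval of at most 0.0346 percentage points to each side, which covers counting error only. The highest shares were those of CON14L and HS5L, and the share lay between 3.52% and 5.11% in eWAT and between 11.3% and 16.5% in muscle. CON16L held muscle markers at a summed 3788 FPKM, against 2.02 to 5.44 in the other liver libraries. HS3W held epididymal markers at a summed 17186 FPKM, against 1.05 to 13.3 in the other eWAT libraries. Blood markers were highest in the libraries of mouse CON16 in each tissue. The paper used all libraries but CON16L, HS5L and HS5W.

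The core of the ISRE, GAAA followed by GAAA with 2 bases of any kind between them, was searched on both strands in the RefSeq promoters of build GRCm38.p6, which run from 250 bases before to 50 bases after the start of a gene. Overlapping matches were counted separately. Of the 27 members with an entry, 13 held it (48.1%), against 1079 of 27025 genes (3.99%). The following stretches lie before the start, read 5′ to 3′ on the strand of the gene, with the matching letters or their reverse complement in capitals. The first set belongs to genes whose HSD libraries lay below the CON libraries in at least 2 tissues (values below), and Ifit3 and Ifit3b as well as Oas1a and Oas1g are shown because their copies are nearly identical.
Isg15, chr4:156200860-156200911, minus strand: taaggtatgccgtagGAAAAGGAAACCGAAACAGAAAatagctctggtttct
Ifit1, chr19:34640770-34640828, plus strand: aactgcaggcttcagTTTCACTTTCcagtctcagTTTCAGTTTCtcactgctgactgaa
Ifit3, chr19:34583358-34583431, plus strand: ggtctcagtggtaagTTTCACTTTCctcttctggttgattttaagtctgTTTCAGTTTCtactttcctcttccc
Ifit3b, chr19:34607754-34607827, plus strand: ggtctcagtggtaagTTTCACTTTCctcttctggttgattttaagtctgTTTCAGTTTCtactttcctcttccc
Oas1a, chr5:120907526-120907560, minus strand: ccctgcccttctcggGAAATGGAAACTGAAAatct
Oas1g, chr5:120887614-120887646, minus strand: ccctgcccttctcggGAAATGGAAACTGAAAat
The second set belongs to genes whose groups were apart in a single tissue, namely Rsad2 in liver, Bst2 in eWAT and Stat2 in muscle.
Rsad2, chr12:26456548-26456587, minus strand: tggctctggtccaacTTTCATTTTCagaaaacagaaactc
Bst2, chr8:71537572-71537617, minus strand: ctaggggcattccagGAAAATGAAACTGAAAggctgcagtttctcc
Stat2, chr10:128270261-128270300, plus strand: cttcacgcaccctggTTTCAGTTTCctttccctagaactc

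Isg15 held 3 overlapping matches, and the 74 bases shown for Ifit3 and Ifit3b are the same letter for letter. In Ifih1, Ddx58 and Eif2ak2 the match lay after the start. A match describes the letters and is not a binding site. Of the 13 members with a match, 9 had every HSD library below every CON library in at least 2 tissues. Of the 14 members with an entry and no match, 4 had, against 3.68% of all genes. The median effect of diet over the 3 tissues was −0.53 on the log2 scale for the 11 members with a match that were tested and −0.48 for the 14 without. Oas2, Ifi204, Usp18, Dhx58, Zbp1, Rtp4, Parp9, Parp14, Ifi27, Ifi27l2a, Mx1 and Mx2 have no entry.

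In CON mice, eWAT held the highest mean FPKM of 29 of the 37 genes and liver that of the other 8. Muscle held the lowest mean of 27 genes and liver that of 10. The median of the CON means was 7.75 FPKM in eWAT, 2.46 in liver and 1.71 in muscle. The highest level belonged to Ifi27l2a (ISG12 family) at 1905 ± 2.78 FPKM (SD, n = 3) in eWAT against 13.5 ± 4.13 in liver and 21.3 ± 8.68 in muscle. Liver led for Bst2 (76.2 ± 41.9 FPKM), Stat2 (34.3 ± 17.6), Isg15 (19.7 ± 9.32), Irf7 (15.4 ± 5.83), Helz2, Ifi35, Oasl1 and Oas1g.

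The tissues were compared by limma in 1 model of all 18 libraries. A gene was called where its log2 difference was at least 1 and its p, adjusted after Benjamini and Hochberg, was under 0.05. Of 35 members tested, 34 were higher in CON eWAT than in CON muscle, as were 45.4% of all 13067 genes tested. Ifit3b was the exception. Liver was below eWAT for 21 members (60.4% of all genes) and above it for 1, Stat2 (7.02% of all genes). Against muscle, liver was higher for 14 members (14.4% of all genes) and lower for 1 (33.9% of all genes). Irf7 did not differ between liver and eWAT (log2 difference 0.44, SE 0.26, adjusted p = 0.134) and was higher than in muscle by 2.79 in liver and by 2.35 in eWAT on the log2 scale. The same order held for Isg15, with a log2 difference of 0.18 (SE 0.30, adjusted p = 0.605) between liver and eWAT. For Oasl2, Eif2ak2 and Ifi204, liver and muscle were the neighbours that did not differ, and eWAT was higher than both. The share of liver fragments on mitochondrially encoded genes bears on these comparisons. With those genes left out, liver was below eWAT for 15 members and above it for 4. Calls over all genes in either direction went from 67.4% to 52.1% at the same time.

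**Figure D1:**
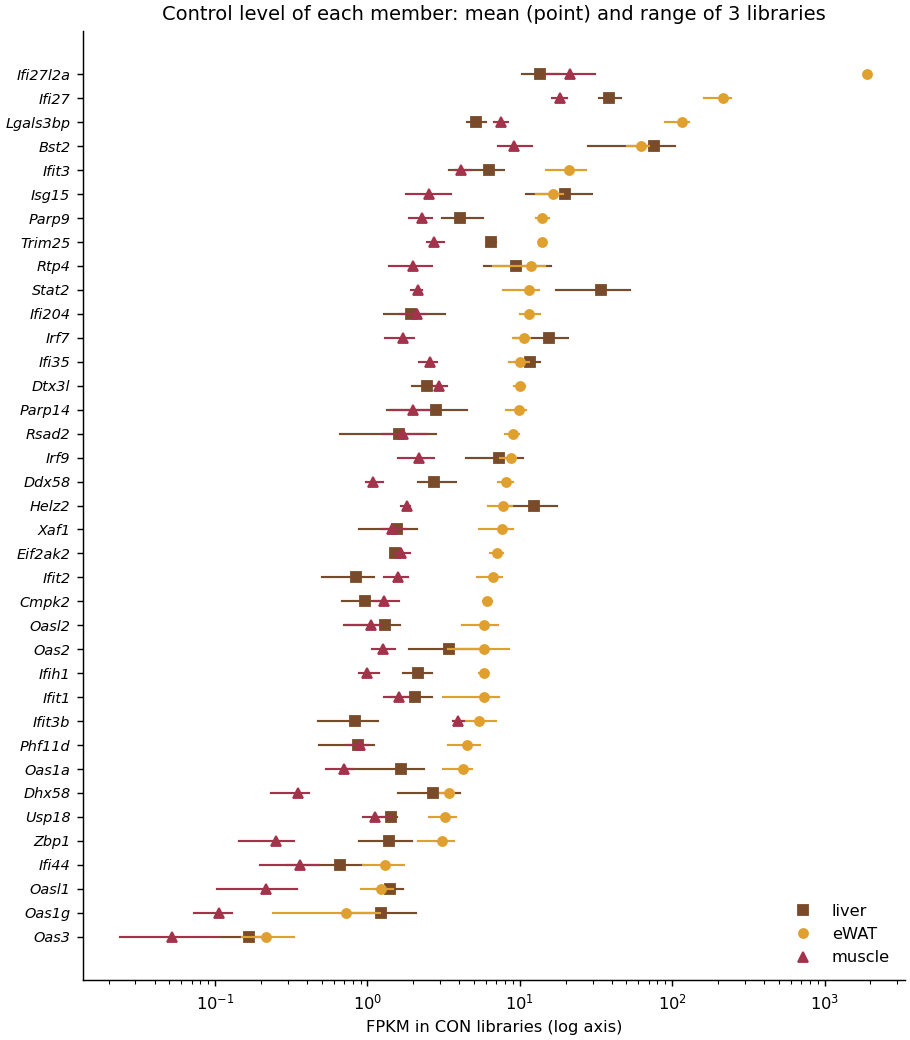
FPKM of the 37 genes in CON libraries on a log axis, with the mean of 3 libraries as a point and their range as a line, for liver (squares), eWAT (circles) and muscle (triangles). eWAT is the highest tissue for 29 genes, and Ifi27l2a in eWAT at 1905 FPKM lies far to the right of all other points.

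The question of the study, what a high-salt diet does to metabolic tissues, was put to each gene by asking whether all 3 HSD libraries lay on 1 side of all 3 CON libraries of a tissue. In liver, this was so for 17 of the 37 genes, all lower in HSD, against 4.26% of all genes above 0. In eWAT, 22 genes lay lower, against 10.4% of all genes. In muscle, 21 genes lay lower, against 13.4% of all genes. No member lay higher in any tissue, where 6.38%, 14.3% and 5.05% of all genes did in liver, eWAT and muscle. Between the tissues, 6 genes lay lower in all 3, against 0.263% of all genes (40 of 15229), and 15 in 2 tissues, 12 in 1 and 4 in none. At least 2 tissues were lower for 3.68% of all genes. The tissues share mice. Of the 37 genes, the number below the lowest CON library was 28, 28 and 22 in HS2L, HS4L and HS5L. It was 28, 33 and 24 in HS2W, HS3W and HS5W, and 35, 31 and 22 in HS2M, HS3M and HS5M. The share of all genes is not given for single libraries, so these counts describe the members only. Without HS3W, 24 genes lay lower in eWAT (17.0% of all genes). Without CON16L, 27 lay lower in liver (7.34% of all genes) and 11 in all 3 tissues (0.366%), and without HS5L 10 lay lower in all 3 (0.489%). With mitochondrially encoded genes left out, 11 lay lower in liver (6.80% of all genes) and 5 in all 3 tissues (0.407%).

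Each tissue was also fitted by limma on log2(FPKM + 0.5) with all its libraries, for genes with a mean of at least 0.5 FPKM, a scale on which low genes change less than they do in FPKM. The median log2 fold change of HSD against CON was −0.56 over the 35 members tested in liver (0.13 over all genes), −0.66 over 36 in eWAT (0.080 over all genes) and −0.47 over 30 in muscle (−0.060 over all genes). It was below 0 for 31 members in liver (37.3% of all genes), 35 in eWAT (40.9%) and all 30 tested in muscle (60.8%). The median HSD mean was 55.4%, 62.1% and 60.3% of the CON mean over the 37 genes. At the thresholds of the paper for a differentially expressed gene (DEG), an adjusted p under 0.05 and a log2 fold change of at least 1 either way, no member was called, against 0.323% of all genes in muscle and 0% in each of the other tissues. Without HS3W, 4 members were called in eWAT (Lgals3bp, Isg15, Oas1a and Ifit3), as were 1.21% of all genes, and without HS5M 1 was called in muscle, Ifit3b (0.212% of all genes). With voom on the recovered fragments the counts were 0, 0 and 1 (0%, 0% and 0.582% of all genes).

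By the adjusted p alone, 4 members fell in muscle (0.895% of all genes in either direction, 0.665% lower), namely Lgals3bp, Ifit3b, Ifit3 and Rtp4, and none passed in liver or eWAT (0% of all genes in each). With the replicate number as a block, 6 members fell in muscle, Irf7 and Oasl2 in addition, where 2.64% of all genes passed in either direction. None passed in muscle when CON16M, CON71M, CON72M or HS3M was left out (0.12%, 0.325%, 0.0924% and 0.138% of all genes). Without HS5M, 1 passed (0.24% of all genes). Lgals3bp alone passed under median-ratio scaling (0.582% of all genes), and no member without the filter on FPKM (0.0541%). An unadjusted p under 0.05 with a lower value was reached by 12 members in liver (1.96% of all genes), 19 in eWAT (7.55%) and 16 in muscle (12%), and by none with a higher value. The smallest p that an exact permutation test allows here is 0.1, and the p of limma is therefore given.

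**Figure D2:**
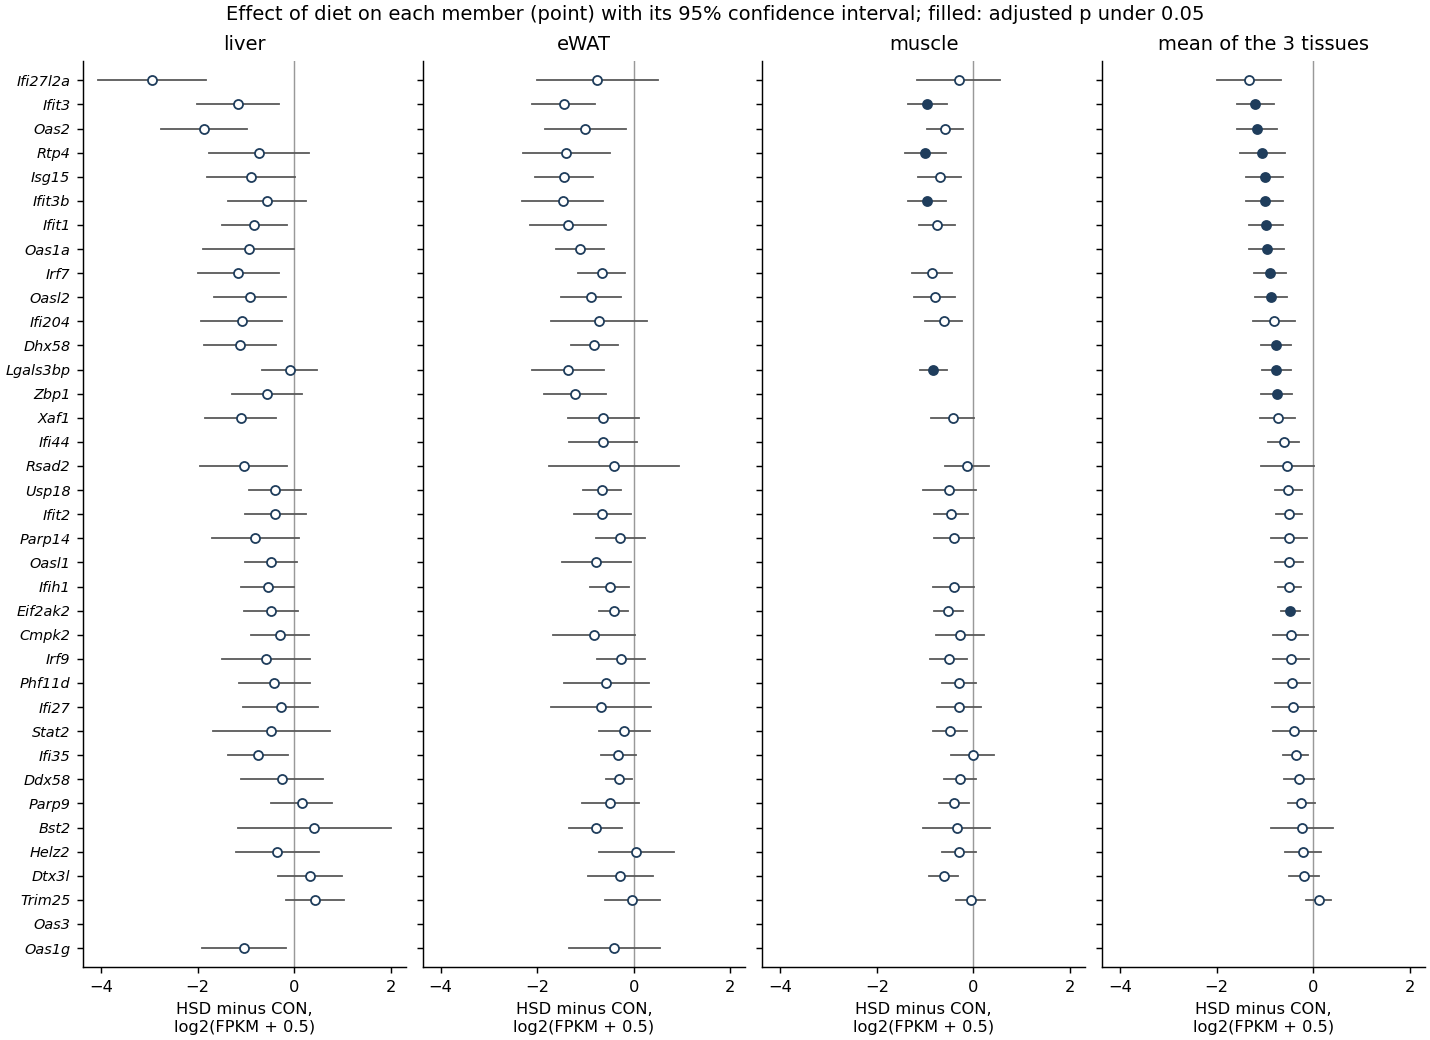
Log2 difference of HSD minus CON for each member in liver, eWAT and muscle and for the mean of the 3 tissues, with its 95% confidence interval and filled points where the adjusted p is under 0.05. Nearly all points lie left of 0, 4 points are filled in muscle and 13 in the mean of the tissues, and genes under the FPKM minimum have no point.

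The 6 genes that lay lower in all 3 tissues were Isg15, Irf7, Oas2, Oasl2, Eif2ak2 and Ifi204. They differ in role: a ubiquitin-like modifier, a transcription factor, 2 members of the oligoadenylate synthetase family, the kinase that stops translation, and a DNA sensor. No interferon ligand, receptor chain or ISGF3 subunit is among them. Values of libraries are given in the order CON14L, CON16L and CON72L against HS2L, HS4L and HS5L in liver, CON16W, CON71W and CON72W against HS2W, HS3W and HS5W in eWAT, and CON16M, CON71M and CON72M against HS2M, HS3M and HS5M in muscle. Adjusted p-values of the tissues are from limma over all genes.

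Isg15 (ENSMUSG00000035692, mm10 chr4:156199424-156200818) encodes the ubiquitin-like protein that is conjugated to other proteins during an interferon response. In liver it stood at 11, 18.6 and 29.5 FPKM in CON and at 8.05, 10.6 and 10.5 in HSD. In eWAT the CON libraries held 12.9, 17.0 and 19.3 FPKM and the HSD libraries 3.96, 6.71 and 6.63. In muscle it was 3.54, 2.28 and 1.78 FPKM against 1.28, 1.21 and 1.49. The groups lay far apart in eWAT, while in liver the lowest control, CON14L, and the highest HSD library, HS4L, nearly touched. In muscle only 11 to 33 fragments stood behind a value. Its log2 fold change was −0.89 in liver (SE 0.39, adjusted p = 0.764), −1.45 in eWAT (SE 0.24, adjusted p = 0.116) and −0.69 in muscle (SE 0.20, adjusted p = 0.136).

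Irf7 (ENSMUSG00000025498, mm10 chr7:141262706-141266481) is the transcription factor that amplifies the transcription of interferon genes. Liver libraries held 20.6, 9.09 and 16.7 FPKM in CON and 4.93, 6.71 and 7.50 in HSD. In eWAT it was 8.95, 11.4 and 11.7 FPKM against 7.18, 4.93 and 7.83. Muscle held 1.30, 2.03 and 1.80 FPKM against 0.597, 0.571 and 1.00. The lowest CON library was that of mouse CON16 in each tissue, and still above the highest HSD library, that of mouse HS5. The log2 fold changes were −1.16 in liver (SE 0.36, adjusted p = 0.764), −0.66 in eWAT (SE 0.20, adjusted p = 0.214) and −0.86 in muscle (SE 0.19, adjusted p = 0.0758). Exons of Irf7 overlap those of Phrf1 on the other strand, and whether the counting used the strand is not stated.

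Oas2 (ENSMUSG00000032690, mm10 chr5:120730333-120749853) makes the 2′-5′ oligoadenylates that switch on RNase L. It stood at 5.54, 1.87 and 2.90 FPKM in CON liver and at 0.345, 0.368 and 0.867 in HSD liver, so that the HSD mean was 15.3% of the CON mean. In eWAT the values were 3.36, 5.69 and 8.47 FPKM against 2.82, 1.79 and 3.04. In muscle they were 1.07, 1.2 and 1.51 FPKM against 0.506, 0.675 and 0.851. The HSD libraries were lower throughout, by the largest fold in liver. Its log2 fold change was −1.87 in liver (SE 0.38, adjusted p = 0.764), −1.0 in eWAT (SE 0.34, adjusted p = 0.248) and −0.58 in muscle (SE 0.16, adjusted p = 0.135).

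Oasl2 (ENSMUSG00000029561, mm10 chr5:114896936-114912234) is a relative of the synthetases. Its liver values were 1.62, 0.702 and 1.56 FPKM in CON and 0.346, 0.272 and 0.697 in HSD, and CON16L and HS5L lay next to each other. eWAT held 4.20, 6.18 and 7.20 FPKM against 3.54, 2.07 and 3.18, and muscle 0.722, 1.23 and 1.22 against 0.259, 0.362 and 0.544. Eif2ak2 (ENSMUSG00000024079, mm10 chr17:78852564-78882573), also known as PKR, phosphorylates the initiation factor eIF2α when double-stranded RNA is present. In liver it stood at 1.44, 1.48 and 1.60 FPKM against 0.882, 0.678 and 1.37. eWAT held 6.40, 7.15 and 7.79 FPKM against 4.60, 5.45 and 5.61, and muscle 1.52, 1.92 and 1.57 against 0.955, 0.979 and 1.09. The log2 fold change of Eif2ak2 was the smallest of the 6 in each tissue, at −0.47 in liver, −0.41 in eWAT and −0.52 in muscle (SE 0.24, 0.12 and 0.13, adjusted p = 0.764, 0.205 and 0.108). For Oasl2 it was −0.92, −0.89 and −0.80 (SE 0.32, 0.25 and 0.19, adjusted p = 0.764, 0.202 and 0.0936).

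Ifi204 (ENSMUSG00000073489, mm10 chr1:173747293-173766943) belongs to the family of IFI16-like DNA sensors. In liver it was 3.20, 1.30 and 1.29 FPKM in CON and 0.458, 0.406 and 0.953 in HSD. eWAT held 10.7, 10.1 and 13.5 FPKM against 9.42, 3.24 and 9.49, and only HS3W was far below the controls. In muscle it was 2.44, 1.64 and 2.26 FPKM against 1.43, 1.23 and 0.928. The log2 fold changes were −1.08 in liver (SE 0.36, adjusted p = 0.764), −0.72 in eWAT (SE 0.41, adjusted p = 0.408) and −0.62 in muscle (SE 0.17, adjusted p = 0.124). Under median-ratio scaling of the libraries Isg15, Irf7, Oas2 and Ifi204 lay lower in all 3 tissues, and Oasl2 and Eif2ak2 did not. With mitochondrially encoded genes left out, Isg15, Oas2 and Ifi204 did, along with Ifit1 and Lgals3bp.

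**Figure D3:**
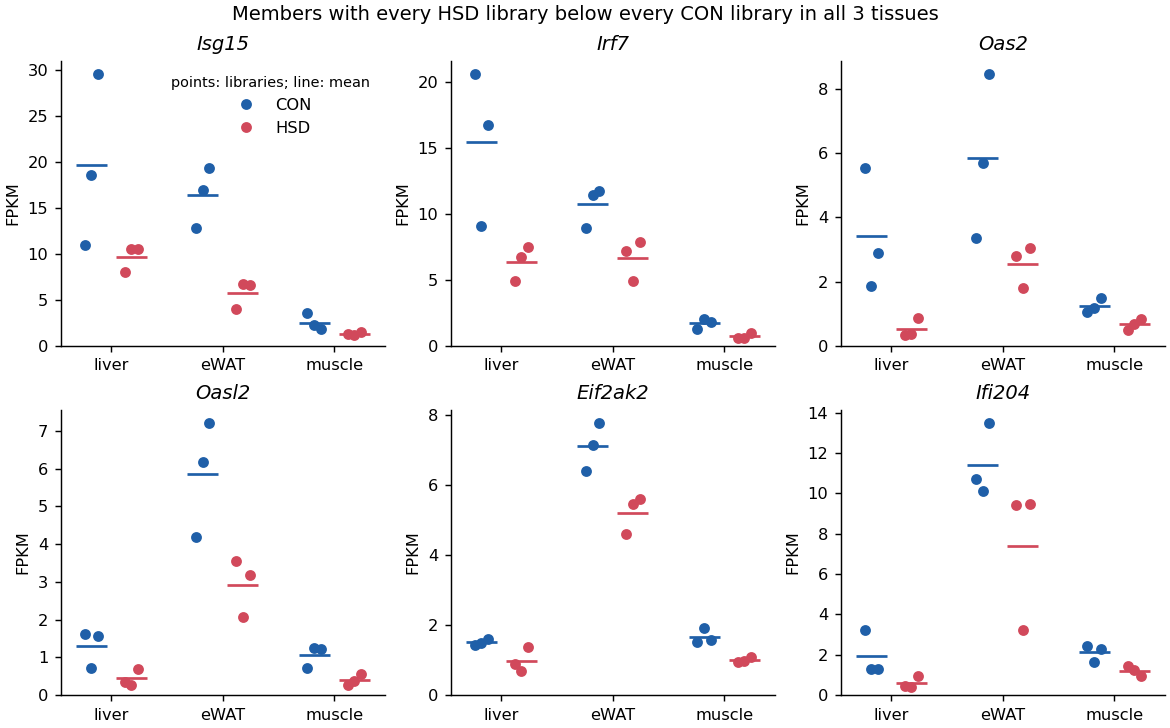
FPKM of Isg15, Irf7, Oas2, Oasl2, Eif2ak2 and Ifi204 in each library (points) with the mean of 3 libraries (lines), for CON (blue) and HSD (red) in the 3 tissues. The red points lie below the blue points in every tissue, and they nearly touch for Oasl2 in liver, at 0.697 FPKM in HS5L and 0.702 in CON16L.

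The ISGF3 subunits Stat2 and Irf9 lay lower in muscle alone. Stat2 (mm10 chr10:128270559-128292849) stood at 1.94, 2.24 and 2.29 FPKM in CON muscle and at 1.23, 1.2 and 1.84 in HSD muscle, a log2 fold change of −0.48 (SE 0.16, adjusted p = 0.178). In liver its values were 52.5, 17.3 and 33.0 FPKM against 18.7, 15.4 and 38.2, and the highest value of each group was in the library with the highest mitochondrial share, CON14L or HS5L. In eWAT the groups overlapped at 11.4 ± 3.19 and 9.65 ± 0.155 FPKM (SD, n = 3). Irf9 (mm10 chr14:55603571-55610030) stood at 1.58, 2.73 and 2.19 FPKM in CON muscle and at 1.21, 1.37 and 1.44 in HSD muscle (log2 fold change −0.51, SE 0.17, adjusted p = 0.183). Its exons overlap those of Rnf31 on the same strand, so fragments of the 2 genes may be mixed.

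Among the sensors, all 5 lay lower in eWAT (10.4% of all genes) and 3 of 5 in liver (4.26%) and in muscle (13.4%). Zbp1, which senses Z-form nucleic acid, stood at 2.14, 3.72 and 3.37 FPKM in CON eWAT and at 1.33, 0.668 and 1.13 in HSD eWAT. Muscle held little of it, with CON values of 0.278, 0.144 and 0.329 FPKM and HSD values of 0.0426, 0.0655 and 0, from 0 to 13 fragments. Dhx58 (LGP2), a regulator of the RIG-I family, was 4.05, 1.58 and 2.44 FPKM in CON liver and 0.675, 0.913 and 1.14 in HSD liver. Ifih1 (MDA5) lay lower in liver and eWAT, with HSD means at 61.1% and 69.2% of CON. Ddx58 (RIG-I) lay lower in eWAT and muscle, by less, at 79.7% and 73.9% of CON.

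The 11 genes that bind or cut RNA or halt translation (Ifit, Oas and Eif2ak2) had the largest median difference of the role groups in eWAT (−0.94 on the log2 scale over 10 members tested). It was −0.87 over 10 in liver and −0.75 over 7 in muscle. Ifit1 (mm10 chr19:34640871-34650009), which binds RNA without a 2′-O-methylated cap, stood at 3.15, 7.35 and 6.90 FPKM in CON eWAT and at 1.77, 1.53 and 2.19 in HSD eWAT (log2 fold change −1.37, SE 0.32, adjusted p = 0.157). In muscle it was 1.73, 1.84 and 1.28 FPKM against 0.566, 0.812 and 0.911 (log2 fold change −0.75, SE 0.17, adjusted p = 0.0783). The liver groups overlapped, with 1.39 FPKM in CON16L and 1.41 in HS4L.

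Ifit3 in muscle held 3.76, 3.77 and 4.82 FPKM in CON and 1.33, 2.03 and 2.36 in HSD, and it fell by 0.96 on the log2 scale (SE 0.18, adjusted p = 0.0452). Ifit3b in muscle held 3.62, 4.31 and 3.84 FPKM against 1.35, 1.62 and 2.46, and it fell by 0.96 as well (SE 0.18, adjusted p = 0.0452). Transcripts of these genes are 97.8% identical over 1700 aligned bases, so how their fragments were shared out is uncertain. In eWAT the HSD means were 34.7% of CON for Ifit3 and 31.0% for Ifit3b, with no overlap of the groups. Ifit2 lay lower in muscle alone, at 1.29, 1.63 and 1.84 FPKM against 1.05, 0.804 and 1.19.

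Oas1a (mm10 chr5:120896256-120907521) stood at 3.11, 4.73 and 4.85 FPKM in CON eWAT and at 1.52, 1.47 and 2.03 in HSD eWAT (log2 fold change −1.11, SE 0.20, adjusted p = 0.125). In muscle it was under the minimum for a test, at 0.761, 0.538 and 0.806 FPKM against 0.159, 0.123 and 0.257, from 3 to 19 fragments. Oas1g, 97.6% identical to Oas1a over 1861 bases and therefore also uncertain, was at 0 in all 3 HSD muscle libraries and at 0.129, 0.0722 and 0.115 FPKM in CON, which is at most 4 fragments. Oas3 lay lower in liver alone, at 0.223, 0.109 and 0.170 FPKM against 0, 0.0681 and 0.0165, from 0 to 12 fragments. Oasl1 lay lower in liver and eWAT.

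Of the genes that act on viruses directly, Bst2 (tetherin), which holds budding virus at the membrane, lay lower in eWAT alone, at 50.8, 70.9 and 65.2 FPKM against 36.7, 27.1 and 45.3 (log2 fold change −0.79, SE 0.22, adjusted p = 0.202). Its liver values ran from 28.0 FPKM in CON14L to 143 in HS4L, and the lowest value of each group was in the library with the highest mitochondrial share. Rsad2 (viperin), whose product makes a chain-terminating nucleotide, lay lower in liver alone, at 1.39, 2.80 and 0.656 FPKM against 0.576, 0.400 and 0.351 (log2 fold change −1.04, SE 0.39, adjusted p = 0.764). Its neighbour Cmpk2 lay lower in eWAT alone, at 5.75, 6.55 and 5.99 FPKM against 3.56, 1.70 and 5.23 (log2 fold change −0.83, SE 0.34, adjusted p = 0.305).

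Usp18, the protease that removes ISG15 and dampens signalling at IFNAR2, lay lower in liver and eWAT. Its eWAT values were 2.53, 3.78 and 3.38 FPKM in CON and 1.76, 1.81 and 1.94 in HSD (log2 fold change −0.66, SE 0.16, adjusted p = 0.165). Dtx3l, a ubiquitin ligase that pairs with Parp9, lay lower in muscle alone, at 2.81, 3.32 and 2.72 FPKM against 1.94, 1.61 and 1.68 (log2 fold change −0.62, SE 0.13, adjusted p = 0.0680). In liver its HSD mean was 134% of CON, with overlapping groups. Exons of Dtx3l and Parp9 overlap on opposite strands. Trim25, a ubiquitin ligase of the RIG-I pathway, overlapped in all tissues, as did Parp14.

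In the remaining group, Lgals3bp, a secreted glycoprotein, fell in muscle by 0.83 on the log2 scale (SE 0.13, adjusted p = 0.0231), from 6.73, 8.36 and 7.63 FPKM to 3.69, 4.33 and 4.05. In eWAT it stood at 90.2, 129 and 128 FPKM in CON and at 56.1, 28.3 and 53.3 in HSD (log2 fold change −1.37, SE 0.30, adjusted p = 0.152). In liver its HSD mean was 94.1% of CON. Rtp4, a chaperone of receptors, fell in muscle by 0.997 on the log2 scale (SE 0.19, adjusted p = 0.0490), just short of the DEG threshold of 1. Its values went from 1.38, 2.65 and 1.97 FPKM to 0.635, 0.795 and 0.757.

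Ifi27l2a had the largest fold change in liver, with 11.9, 10.4 and 18.2 FPKM in CON and 0.415, 2.91 and 1.26 in HSD, an HSD mean at 11.3% of CON from 2 to 77 fragments (log2 fold change −2.95, SE 0.48, adjusted p = 0.550). In eWAT it stood at 1906, 1901 and 1906 FPKM against 1701, 516 and 1644, so that most of the difference in means was that of HS3W. In muscle the groups overlapped, with an HSD mean at 85.6% of CON. A transcript of the neighbouring copy Ifi27l2b is 90.7% identical to it over 236 bases. Xaf1, which promotes apoptosis, lay lower in liver alone, at 2.12, 0.880 and 1.66 FPKM against 0.389, 0.247 and 0.674 (log2 fold change −1.11, SE 0.32, adjusted p = 0.764). Ifi35 lay lower in liver alone as well, at 9.34, 12.3 and 13.5 FPKM against 6.56, 7.98 and 5.83 (log2 fold change −0.74, SE 0.27, adjusted p = 0.764), as did Ifi44 at lower levels, and Helz2 lay lower in muscle alone. Ifi27 and Phf11d overlapped in all tissues.

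Whether a member moved differently between tissues was tested as the difference of the diet effects in the model of all 18 libraries. None of the 35 members passed an adjusted p of 0.05 for liver against eWAT (0.811% of all genes), liver against muscle (0.0612%) or eWAT against muscle (0%). Before adjustment, 2 of 35 members had a p under 0.05 for liver against eWAT (13.9% of all genes), 6 for liver against muscle (8.07%) and none for eWAT against muscle (8.3%). The genes lower in 1 tissue alone are thus not shown to differ between the tissues. The largest differences were those of Ifi27l2a, −2.21 for liver minus eWAT (SE 0.75, adjusted p = 0.213) and −2.65 for liver minus muscle (SE 0.75, adjusted p = 0.287), and of Oas2, −1.28 for liver minus muscle (SE 0.47, adjusted p = 0.484). In the other direction, Lgals3bp differed by 1.27 for liver minus eWAT (SE 0.34, adjusted p = 0.117). For Stat2, the difference of liver minus muscle was 0.014 with a 95% interval from −1.05 to 1.08, and for Irf9 it was −0.058 with an interval from −0.93 to 0.82. Over the libraries of the paper, 4 members passed for liver minus eWAT (Lgals3bp, Bst2, Dtx3l and Ifit3b), as did 23.9% of all genes, and 4 for liver minus muscle (Dhx58, Oas2, Dtx3l and Ifi27l2a), as did 13.9% of all genes. Without HS5L, Lgals3bp passed for liver minus eWAT (adjusted p = 0.0331), as did 5.05% of all genes.

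The mean of the 3 diet effects was below 0 for 34 of 35 members, with a median of −0.52 (0.036 over all genes). Of these, 13 fell at an adjusted p under 0.05 (0.566% of all genes in either direction, 0.421% lower), and none rose. Before adjustment 26 were lower at a p under 0.05 (6.95% of all genes). The model takes 1 correlation between libraries of a mouse for all genes (0.0222), so it treats them as nearly independent. By the mean of the members, CON16 was the lowest control and HS5 the highest HSD mouse in each tissue (values below). The p-values of the mean effect may therefore be too small for the members. Ifit3 fell by 1.19 on the log2 scale (SE 0.18, adjusted p = 0.0113), Oas2 fell by 1.15 (SE 0.20, adjusted p = 0.0172), Rtp4 fell by 1.05 (SE 0.22, adjusted p = 0.0467) and Isg15 fell by 1.01 (SE 0.18, adjusted p = 0.0237). The others were Ifit3b, Ifit1, Oas1a, Irf7, Oasl2, Dhx58, Lgals3bp, Zbp1 and Eif2ak2, with falls from 1.00 to 0.47. Irf7 fell by 0.90 (SE 0.16, adjusted p = 0.0215) and Oas1a fell by 0.96 (SE 0.17, adjusted p = 0.0241). Ifi204 (−0.81, SE 0.21, adjusted p = 0.0909), Usp18 (−0.52, SE 0.13, adjusted p = 0.0909), Irf9 (−0.46, SE 0.17, adjusted p = 0.255) and Stat2 (−0.39, SE 0.21, adjusted p = 0.438) did not pass. Trim25 alone lay above 0 (0.12, SE 0.12).

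This count depended on the libraries and the tool. It was 26 over the libraries of the paper (10.9% of all genes), all 13 among them, 6 with mitochondrially encoded genes left out (0.421%), and 0 with voom on the recovered fragments (0.0536%), where the smallest adjusted p was 0.0603 and 25 members were under 0.05 before adjustment. It was 20 without HS5W (1.55% of all genes) and 3 without CON71W or CON72W (0.169% of all genes in each case). Without HS2L it was 4 (0.206%) and without CON72L 5 (0.267%), so the share of all genes fell in these cases as well. Of the muscle libraries, it was 3 without HS2M or HS3M, 4 without CON72M, 5 without CON16M, and 8 without CON71M or HS5M. The shares of all genes in these muscle cases are not given here, so a fall particular to the members cannot be read from them. By the number of tissues in which a gene lay lower, the median mean effect was −0.89 for the 6 genes of all 3 tissues, −0.76 for the 14 genes tested of 2, −0.46 for the 11 tested of 1 and −0.42 for the 4 of none, an order that follows in part from how these groups were formed.

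The rest of the pathway was read from fixed lists. Of 21 interferon ligand genes, 18 in liver, 19 in eWAT and all 21 in muscle were listed at 0 in every library, Ifnb1 among them in each tissue, and none reached the minimum for a test. The others stood on at most 2 fragments. Of the 8 receptor and kinase genes, 3 lay higher in HSD liver (6.38% of all genes). In eWAT 1 lay lower (10.4%) and 2 higher (14.3%), and in muscle 3 lay lower (13.4%) and 1 higher (5.05%). None of the 8 receptor and kinase genes passed the adjusted p in any tissue or in the mean of the tissues. Ifnar1 was 4.27 ± 0.378 FPKM in CON and 4.77 ± 0.170 in HSD liver (SD, n = 3), 14 ± 0.837 and 12.6 ± 1.71 in eWAT, and 2.93 ± 0.119 and 2.52 ± 0.0584 in muscle. Ifnar2 lay higher in HSD liver (4.24 ± 1.27 against 7.25 ± 1.63 FPKM, adjusted p = 0.764) and lower in HSD eWAT (15.5 ± 0.896 against 11.2 ± 1.92 FPKM, adjusted p = 0.221). Jak1 had log2 fold changes of 0.18, −0.095 and −0.19 in liver, eWAT and muscle, and Tyk2 of −0.44, 0.28 and −0.20.

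Of 12 sensors and adaptors upstream of interferon, 9 were tested in liver, 12 in eWAT and 8 in muscle, and none passed the adjusted p. Their median log2 fold change was 0.055, −0.094 and −0.32. Sting1, the adaptor of the DNA sensor cGAS, was 7.92 ± 0.414 FPKM in CON and 6.09 ± 0.162 in HSD eWAT (adjusted p = 0.161). Irf5 was 2.10 ± 0.776 and 0.839 ± 0.308 FPKM in muscle (adjusted p = 0.0936). Of 7 genes that restrain the response, 5, 6 and 4 were tested and none passed. The median over the 8 receptor and kinase genes was 0.13, −0.068 and −0.18.

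The libraries of single mice were followed across tissues by the mean of all members. The mean log2 level of the 37 genes was lower in each HSD library than in each CON library of its tissue: 1.23 to 1.47 against 1.68 to 2.21 in liver, 2.17 to 2.84 against 2.96 to 3.41 in eWAT, and 0.54 to 0.87 against 1.07 to 1.28 in muscle. Mouse CON16 was the lowest control in each tissue, at −0.30, −0.29 and −0.10 relative to the CON mean, and mouse HS5 the highest HSD animal in each, at −0.51, −0.41 and −0.31. Of the 37 genes, 28 in liver, 32 in eWAT and 22 in muscle had their lowest CON value in CON16. Similarly, 21, 25 and 28 genes had their highest HSD value in HS5. HS3W was the lowest library of eWAT at −1.08, while HS3M lay between the other HSD libraries of muscle at −0.48.

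Markers of macrophages moved with these genes. The summed FPKM of 8 macrophage markers was 19.5 to 32.7 in CON and 9.62 to 17.9 in HSD liver, 378 to 577 and 159 to 355 in eWAT, and 36.6 to 64.8 and 28.3 to 32.2 in muscle, with no overlap in any tissue. Lyz2 made up 48.5% to 83.0% of each sum, at means of 15.3, 377 and 44.3 FPKM in CON and 8.17, 181 and 23.7 in HSD liver, eWAT and muscle. Without Lyz2 the sums overlapped in eWAT (92.1 to 131 FPKM in CON and 47.9 to 105 in HSD) and not in liver (8.83 to 9.66 and 4.95 to 6.93) or muscle (7.83 to 12.7 and 6.66 to 7.23). Of the 8, 2 lay lower in liver (4.26% of all genes), 4 in eWAT (10.4%) and 3 in muscle (13.4%). None passed the adjusted p, and none was at 0 throughout a tissue. Adgre1 (F4/80) was 12.3 ± 2.86 and 6.53 ± 3.13 FPKM in eWAT, and Cd14 did not follow, at 15.3 ± 3.86 and 19.0 ± 9.02. In liver Cd14 was 1.07 and 1.17 FPKM and Mrc1 1.44 and 1.48 FPKM in CON and HSD. The 5 markers of Kupffer cells, the macrophages of liver, summed to 24.5 to 48.3 FPKM in CON and 11.3 to 19.5 in HSD liver, lowest among the controls in CON16L. Mouse CON16, lowest among the controls for the interferon-stimulated genes, had the highest macrophage sum of the controls in all 3 tissues. The part of macrophages in the lower level of these genes was not tested. Markers of plasmacytoid dendritic cells, known producers of interferon, summed to under 4 FPKM in all libraries but HS3W (12.9 FPKM), and Cd300c was at 0 throughout muscle. Of these markers, Ly6d had the largest mean and spread in HSD eWAT, at 5.02 ± 6.35 FPKM. Siglech was not higher there, at 0.869 ± 0.506 FPKM in CON and 0.631 ± 0.384 in HSD eWAT. HS3W was also the library that held epididymal markers. Whether it held more plasmacytoid dendritic cells was not tested.

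Lymphocyte markers summed to 2.32 to 4.73 FPKM in CON and 2.30 to 2.94 in HSD liver, 6.40 to 12.6 and 4.85 to 10.1 in eWAT, and 1.31 to 1.72 and 0.437 to 1.02 in muscle, where 1 marker passed the adjusted p. Neutrophil markers summed to 2.73 to 7.35 and 1.80 to 2.18 FPKM in eWAT and overlapped in liver and muscle. Endothelial markers summed to 9.11 to 24.1 and 5.93 to 8.27 FPKM in liver, highest in CON16L, and overlapped in the other tissues. None of the 6 endothelial markers lay apart in liver by itself. In eWAT, markers of the other tissues moved as well. The 6 skeletal muscle markers summed to 8.79 to 17.6 FPKM in CON and 28.2 to 44.5 in HSD eWAT. Of the 6, 5 lay higher in HSD without overlap (14.3% of all genes). There, 6 of 8 hepatocyte markers and 3 of 6 adipocyte markers lay lower in HSD (10.4% of all genes). Their sums did not all follow. Hepatocyte markers summed to 1076 to 1570 FPKM in CON eWAT and to 2146, 670 and 2576 in HS2W, HS3W and HS5W. Adipocyte markers summed to 14694 to 15769 FPKM in CON and to 19083, 6152 and 20266 in the same HSD libraries. The part of these cells was likewise not tested.

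**Figure D4:**
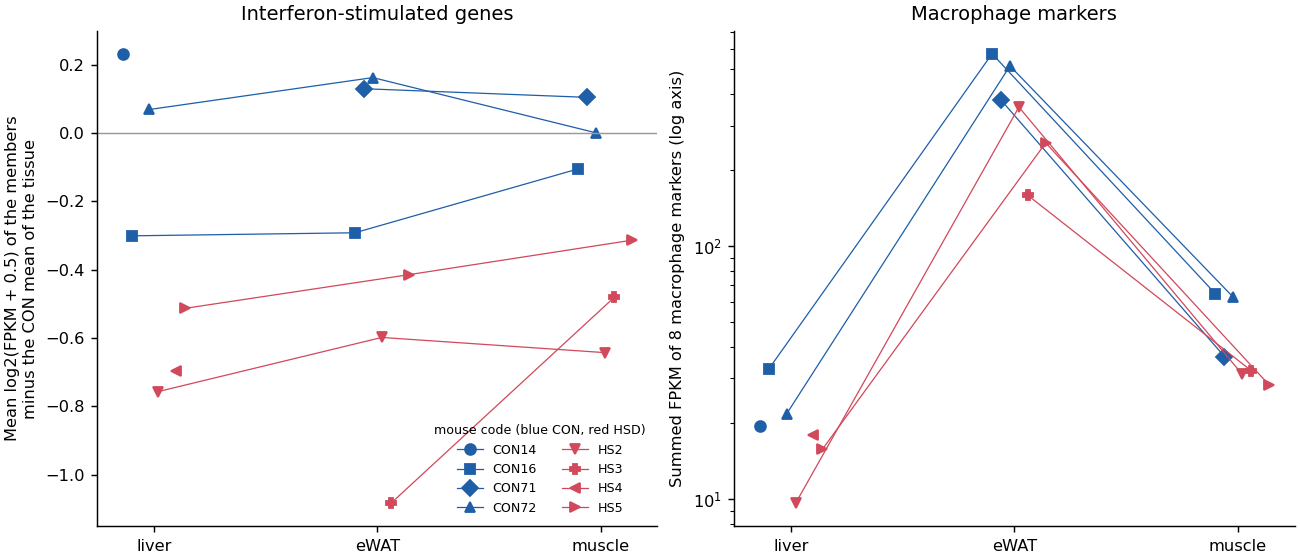
Left, mean log2(FPKM + 0.5) of the 37 genes in each library minus the CON mean of its tissue; right, summed FPKM of 8 macrophage markers on a log axis; lines join the libraries of 1 mouse, blue for CON and red for HSD. All red points lie below all blue points of a tissue on the left, CON16 is the lowest blue point in each tissue there, and on the right CON16 is the highest blue point in each tissue.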

How the data were processed

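RNA of liver, eWAT and quadriceps muscle was sequenced in 18 libraries after rRNA depletion with a stranded kit. Per the paper, the authors used cutadapt for trimming, hisat2 with mm10 for alignment and cuffdiff for the FPKM. The deposited FPKM were analysed as they stand. The submitters' processing notes also name HTSeq 0.9.1 and mm9. The release of the annotation and the strand setting of the counting are not given in the sources used here. Fragments were recovered by multiplying FPKM by library total and exon length from GENCODE M21, which was whole within 0.02 fragments for 18343 genes, and at another whole-number length for 479. No column was left unused.

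Within each tissue, HSD was compared with CON by limma 3.58.1 (R 4.3.3) with eBayes and a trend. Values were log2(FPKM + 0.5), and genes had to average at least 0.5 FPKM. The authors tested with DESeq2, and limma was used here because the deposited values are FPKM. A joint limma model of 6 groups had the mouse code as a random block (consensus correlation 0.0222). Adjusted p-values are Benjamini-Hochberg over all genes tested, and tests are 2-sided. P-values measure the spread between these libraries.

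CON and HSD libraries share replicate numbers but no animal. Deviations from group means correlated by 0.383, 0.177 and 0.184 between same-numbered muscle libraries, across genes. Different-numbered muscle libraries ran from −0.347 to 0.180, the latter for CON72M and HS3M. The fit with the replicate block is given for muscle as an alternative only, because nothing but the number links these libraries.

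The members and lists were chosen with earlier results of these data known. Every member is counted. Named in full are genes lower in all 3 tissues, genes called in a tissue, up to 3 genes per tissue that lay apart in that tissue alone, and Irf7, Stat2, Irf9, Isg15, Usp18, Ifit1, Oas1a and Mx1 with Ifnb1, Ifnar1, Ifnar2, Jak1 and Tyk2. A further gene of this rule is not reported here. Other genes are named as examples, chosen after their values were seen. Transcripts were compared with blastn 2.17.0. Python 3.11.15 with pandas 2.3.3 was used elsewhere.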

Additional observations from a re-analysis of the deposited data

How the results depend on the processing

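The direction of the median log2 fold change was the same in every tissue under all alternatives run, which were other pseudocounts (0.1 and 1), other minimums of FPKM (none and 1), median-ratio scaling, mitochondrially encoded genes left out, arrayWeights, the replicate block, all tissues in 1 fit, voom, the libraries of the paper, each library left out and, in liver, the mitochondrial share as a covariate and CON14L with HS5L left out. In liver the median moved to −0.97 with mitochondrially encoded genes left out, where the median of all genes moved from 0.13 to −0.20, and to −0.81 over the libraries of the paper, and it was nearer 0 with the covariate (−0.39) or a pseudocount of 1 (−0.46). Without CON14L and HS5L it was −0.59. In muscle it moved to −0.65 with voom and to −0.36 with a pseudocount of 1 or arrayWeights. DEG calls among members were 10 in liver and 8 in eWAT with arrayWeights (8.98% and 1.6% of all genes called), 2 and 6 with all tissues in 1 fit (0.314% and 1.23%), and 2 in liver (Oas2 and Ifit3) over the libraries of the paper (0.351%). In muscle they were 2 with a pseudocount of 0.1 (0.471%) or with mitochondrially encoded genes left out (0.389%) and 1 with voom (0.582%). The replicate block gave 0 calls in each tissue, and in liver and eWAT, where same-numbered libraries correlated between −0.47 and 0.41, it changed no call. Differences between tissues passed in 8 cases over the libraries of the paper (23.9% of all genes for liver minus eWAT and 13.9% for liver minus muscle) and 2 with arrayWeights (11% for eWAT minus muscle). The mean effect passed for 26 members over the libraries of the paper (10.9% of all genes), 6 with mitochondrially encoded genes left out (0.421%) and 0 with voom (0.0536%). Genes lower in liver numbered 11 with mitochondrially encoded genes left out (6.80% of all genes) and 30 over the libraries of the paper (19.0%), where 2 CON stand against 2 HSD liver libraries. Those lower in all 3 tissues numbered 13 over the libraries of the paper (0.671%) and 10 without CON14L and HS5L (0.751%). The alternatives for genes lying lower, voom in the joint model, the covariate, leaving out CON14L with HS5L and leaving out Lyz2 were chosen after seeing the data. The cause was not tested.

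With each library left out in turn, calls ranged from 0 to 0 in liver, 0 to 4 in eWAT and 0 to 1 in muscle, the medians from −0.76 to −0.42, −0.84 to −0.45 and −0.58 to −0.40, differences between tissues from 0 to 1, members with a mean effect from 3 to 20, and differences between CON tissues from 68 to 74. Over all genes, calls ranged from 0% to 0.00998% in liver, 0% to 1.21% in eWAT and 0.0924% to 0.562% in muscle. Genes lying lower ranged from 17 to 27 in liver, 22 to 31 in eWAT, 21 to 29 in muscle and 6 to 11 in all 3. The shares of all genes ran from 5.85% to 12.1%, 12.8% to 17.0%, 18.2% to 21.2% and 0.289% to 0.489%. With all libraries they were 4.26%, 10.4%, 13.4% and 0.263%, so each share was higher with a library left out. A group with 1 library fewer was fitted with the spread of the others. Members under the minimum of 0.5 FPKM rest on few fragments, and their differences were not tested.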
